A study of Mus musculus with 32 samples.

Results

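The genes described are the angiopoietins and their Tie receptors (Angpt1, Angpt2, Tek, Tie1), apelin and its receptor (Apln, Aplnr), the endothelial adhesion genes Cdh5 and Pecam1, and Car4 and Ednrb, which mark a capillary cell of the lung. They were found by name, as every probe whose gene name in the array files is one of these 10 symbols. That gave 12 probes for 10 genes, of 55681 mouse probes for 35715 gene names on the array. All 10 symbols matched a RefSeq gene.

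Angiopoietin 1, made mainly by cells around the vessel wall, activates the receptor Tek (also called Tie2) on endothelial cells and keeps vessels stable, while angiopoietin 2, made by endothelial cells, opposes it in many settings. Tie1 is a related receptor with no angiopoietin that binds it strongly by itself, and it shapes signalling through Tek. Apelin is a secreted peptide of endothelial tip cells and acts through the G protein-coupled receptor encoded by Aplnr. In the mouse lung, the capillary bed holds large, thin aerocytes over which gas is exchanged, marked by Car4 (a membrane-bound carbonic anhydrase), Ednrb (an endothelin receptor) and Apln, and smaller general capillary cells, marked by Aplnr and Kit. Cdh5 (VE-cadherin) and Pecam1 are found on nearly all endothelial cells.

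RNA of whole lungs from C57Bl/6J wild-type mice was measured on one-colour arrays, 32 in all, in 8 groups of 4. Newborn mice received a scrambled antimiR or antimiR-34a, a locked nucleic acid oligonucleotide that blocks the microRNA miR-34a, and were kept from the day of birth in 21% O2 (normoxia) or 85% O2 (hyperoxia), the latter being a model of bronchopulmonary dysplasia, the lung disease of preterm infants with arrested alveolar growth. Lungs were collected at post-natal day 5 (P5) or 14 (P14), and every mouse had received an oligonucleotide, so the scrambled antimiR groups are the controls and no group is untreated. Each value is a log2 level, the background-corrected spot signal in log2, centred on the 75th percentile of its array, and a difference of 1 is a change of 2-fold. Because each of the 4 slides held 8 arrays of a single age and a single oxygen level, an effect of oxygen or age and an effect of slide cannot be told apart. The antimiR comparisons lie within slides, although the scrambled antimiR was always on row 1 and antimiR-34a on row 2. In whole lung, fewer cells of a type and less RNA per cell cannot be told apart.

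The microRNA that the antimiR blocks is shown with its relatives, since they share the stretch that selects target transcripts. RefSeq (GRCm38.p6) places mmu-miR-34a-5p at chr4:150068473-150068494 on the plus strand. The capitals mark the seed, bases 2 to 8, which is the same in 4 mature mouse microRNAs of that table.
mmu-miR-34a-5p: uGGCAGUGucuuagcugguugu
mmu-miR-34b-5p: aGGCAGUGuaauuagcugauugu
mmu-miR-449a-5p: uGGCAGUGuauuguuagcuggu
mmu-miR-449c-5p: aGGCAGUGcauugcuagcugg
The reverse complement of this seed was in 0 of the 12 member probes and in 250 of all 55681 probes (0.449%). A probe covers 60 bases of a transcript, so this says nothing of the rest of the transcript.

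The probes of Tek and Tie1 are shown because these related receptors gave unlike results. The probe of Tek lies at chr4:94540624-94540683 and that of Tie1 at chr4:118144132-118144191 (mm9, as the array files give it). When they are set against each other, 39 of 57 aligned bases are shared (68.4%), here in capitals, and both read without a stop codon in the shared frame.
Tek: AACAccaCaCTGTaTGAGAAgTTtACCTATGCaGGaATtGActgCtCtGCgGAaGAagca
Tie1: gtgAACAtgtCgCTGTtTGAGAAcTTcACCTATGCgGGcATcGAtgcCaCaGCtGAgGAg
The main probes of the others lie at chr15:42256335-42256394 (Angpt1), chr8:18691458-18691517 (Angpt2), chrX:45378593-45378652 (Apln), chr2:84979638-84979697 (Aplnr), chr8:106668159-106668218 (Cdh5), chr11:106540864-106540923 (Pecam1), chr11:84779487-84779546 (Car4) and chr14:104214484-104214543 (Ednrb). Car4 and Ednrb have a second probe each, at chr11:84777667-84777726 and chr14:104220870-104220929. The main probe of a gene is the brighter.

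RefSeq promoters were at hand for 5 of the 10 genes (Tek, Tie1, Apln, Car4 and Ednrb). The 250 bases before the start of transcription are shown for the 3 of these with the largest changes in hyperoxia at P14: Apln at chrX:48034854-48035103 (minus strand), Tek at chr4:94739039-94739288 (plus strand) and Ednrb at chr14:103843702-103843951 (minus strand), all GRCm38.p6. Capitals mark matches, on either strand, to the core GGAA bound by ETS factors and to the hypoxia element cores ACGTG and GCGTG.
Apln: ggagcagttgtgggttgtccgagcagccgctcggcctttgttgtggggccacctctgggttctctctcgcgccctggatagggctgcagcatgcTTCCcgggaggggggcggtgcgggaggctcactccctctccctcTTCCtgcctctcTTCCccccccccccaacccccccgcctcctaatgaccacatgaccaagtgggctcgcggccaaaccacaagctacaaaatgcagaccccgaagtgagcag
Tek: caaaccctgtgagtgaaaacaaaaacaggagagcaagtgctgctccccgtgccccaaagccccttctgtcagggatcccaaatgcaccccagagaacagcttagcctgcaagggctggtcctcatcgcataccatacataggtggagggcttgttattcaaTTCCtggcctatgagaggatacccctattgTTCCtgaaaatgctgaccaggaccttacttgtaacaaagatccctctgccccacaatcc
Ednrb: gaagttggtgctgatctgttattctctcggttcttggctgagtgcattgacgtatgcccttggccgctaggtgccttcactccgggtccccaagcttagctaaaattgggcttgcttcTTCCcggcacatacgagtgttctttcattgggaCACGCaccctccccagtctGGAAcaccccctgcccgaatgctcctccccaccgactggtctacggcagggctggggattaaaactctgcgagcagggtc
GGAA was found 3 times before Apln, 2 times before Tek and 2 times before Ednrb. It is in 93.4% of the 32851 promoters of that length. The core ACGTG was in none of the 3 and is in 16.6% of all, and GCGTG was found 1 time, before Ednrb, and is in 28.2%. A match is a run of letters and no shown site, and a missing match says only that the letters are not in this window.

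All 10 main probes were well above background on all 32 arrays, and no spot was saturated. Arrays had 33607 to 40776 probes well above background. In 21% O2 at P14, scrambled replicate 4 was dimmer than the other 3 of its group (75th percentile 9.34 against 10.12 to 10.17 in log2) and antimiR-34a replicate 1 was brighter than the other 3 of its group (10.20 against 9.56 to 9.64), so each resembled the other group in brightness. In 21% O2 at P5, scrambled replicate 4 had a mean log2 level of 8 skeletal muscle genes of 1.52, against -2.92 to -2.02 in the other 3.

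**Figure D1:**
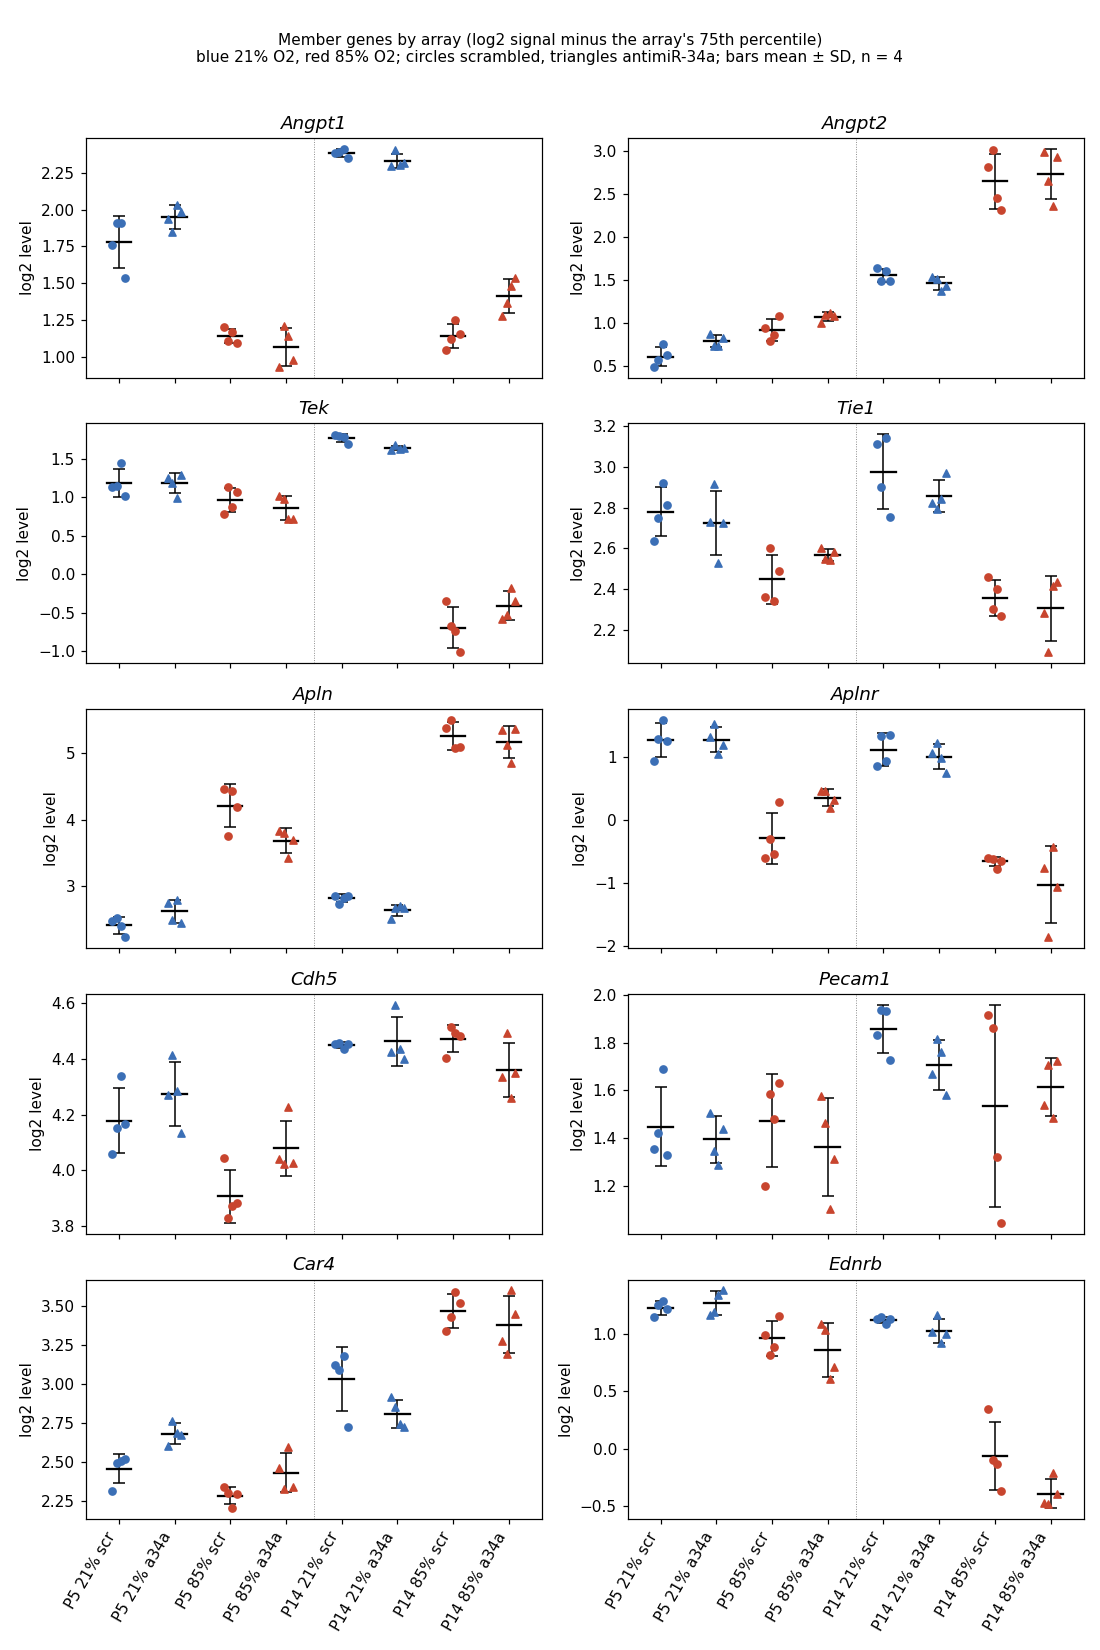
Log2 level of each of the 10 genes (vertical axis, log2 signal centred on its array's 75th percentile, main probe) on all 32 arrays, by group (horizontal axis). Points are arrays, blue 21% O2 and red 85% O2, circles scrambled antimiR and triangles antimiR-34a, and bars give mean ± SD of 4 arrays. Tek lay below 0 on all 8 arrays of 85% O2 at P14 and above 0 on the other 24, whereas for Pecam1 the groups next to each other in level all overlap.

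In normoxia, most of these genes stood higher at P14 than at P5. With scrambled antimiR, 7 of the 10 rose and 0 fell, where 52.3% of the 27079 genes tested differed and 28.5% rose. Their median log2 change was 0.41, against 0.04 over all genes. By main probes Angpt2 rose most, from 0.61 ± 0.11 to 1.56 ± 0.08 (log2 level, mean ± SD, n = 4), a fold of 1.93 (adjusted p = 4.83e-07, limma). Angpt1 rose 1.52-fold (adjusted p = 3.34e-07) and Tek by 0.58 in log2 (adjusted p = 0.00018), and the smaller rises were those of Car4 (1.49-fold), Pecam1 (1.33-fold), Apln (1.32-fold) and Cdh5 (1.21-fold). Tie1, Aplnr and Ednrb did not pass the test, with log2 changes of 0.20, -0.15 and -0.10. The second probe of Car4 rose 2.21-fold (adjusted p = 3.69e-08), more than its main probe and more than Angpt2. The second probe of Ednrb did pass, at 1.52-fold higher (adjusted p = 0.000184), so its 2 probes gave different calls. Without scrambled replicate 4 of 21% O2 at P5, the array with the skeletal muscle genes, 5 genes rose, and Apln (adjusted p = 0.054) and Pecam1 (adjusted p = 0.0517) did not pass. Without the 2 arrays that stood apart in brightness, Tie1 passed as well (log2 change 0.27, adjusted p = 0.0208), as it did without the dim one alone (adjusted p = 0.0187), with normexp (adjusted p = 0.0252) and without scrambled replicate 3 of P5 (adjusted p = 0.0422).

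Of the 14 other pan-endothelial genes, 10 were higher and 0 lower at P14, with a median log2 change of 0.36. Of 6 general capillary genes other than the members, 5 were higher and 0 lower. The lymphatic list had 3 of 4 lower and 0 higher. Of 6 lung epithelial genes, 4 were higher and 1 lower, with a median of 0.55. These counts stand beside 28.5% of all genes higher and 23.7% lower at P14. The part of these lists in the changes of the 10 genes was not tested.

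In hyperoxia Angpt1, Tie1 and Aplnr fell and Angpt2 and Apln rose at both ages with scrambled antimiR. With scrambled antimiR at P5, 6 of the 10 genes passed the test, 2 higher and 4 lower, beside 45.8% of all 25178 genes tested (18.2% higher and 27.6% lower). At P14, 8 of 10 passed, 3 higher and 5 lower, beside 61.6% of 26714 genes (28.9% higher and 32.6% lower). With antimiR-34a the counts were 7 at P5 (2 higher, 5 lower, beside 48.2%, 18.3% and 29.9% of all genes) and 8 at P14 (3 higher, 5 lower, beside 66.4%, 29.5% and 36.9%). These counts lie near the background and are no result about the 10 genes. In size, the median absolute log2 change with scrambled antimiR was 1.14 for the 10 genes and 0.45 for all genes at P14, and 0.29 and 0.27 at P5.

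**Figure D2:**
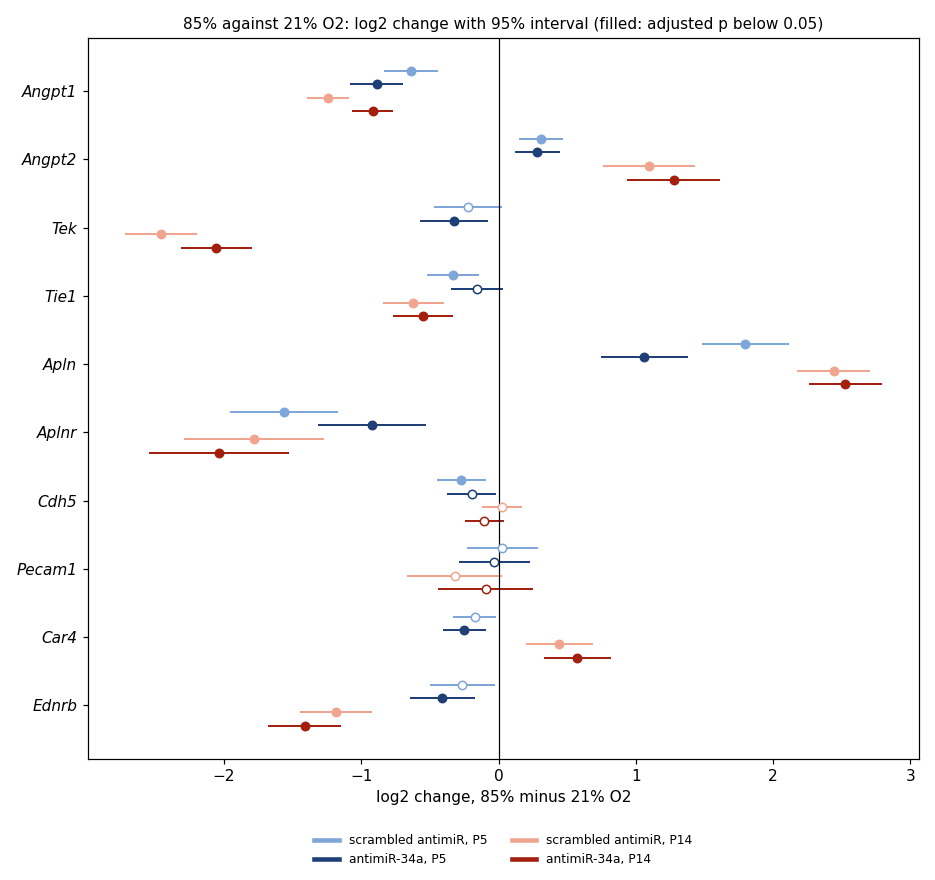
Log2 change of the 10 genes between 85% and 21% O2 (horizontal axis) with its 95% interval from the limma fit, for scrambled antimiR and antimiR-34a at P5 and P14 (4 arrays a group). Filled points passed an adjusted p of 0.05. At P14 Tek lies at -2.46 and -2.05 and Apln at 2.44 and 2.53, whereas all 4 intervals of Pecam1 include 0.

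The angiopoietins moved in opposite directions. The level of Angpt1 on the 4 scrambled antimiR arrays at P14 was 2.39, 2.39, 2.41 and 2.35 in 21% O2 and 1.05, 1.12, 1.25 and 1.15 in 85% O2. The groups stood far apart, and the fall was 2.37-fold (log2 change -1.24, SE 0.07, adjusted p = 6.82e-09). At P5 the levels were 1.76, 1.91, 1.91 and 1.54 in 21% O2 and 1.20, 1.11, 1.17 and 1.09 in 85% O2, a fall of 1.56-fold (adjusted p = 5.4e-05). The mean in 85% O2 was 1.14 at both ages, and the level in 21% O2 was higher at P14.

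Angpt2 rose at both ages. At P14 it lay at 1.64, 1.49, 1.60 and 1.49 in 21% O2 and at 2.82, 3.01, 2.45 and 2.32 in 85% O2, with no overlap and with a wider spread in 85% O2 (SD 0.32 against 0.08). The rise was 2.14-fold (log2 change 1.10, SE 0.15, adjusted p = 3.65e-05). At P5 the rise was 1.24-fold, from 0.49, 0.57, 0.75 and 0.62 to 0.94, 0.78, 0.86 and 1.08 (adjusted p = 0.00351). With antimiR-34a, Angpt1 fell 1.85-fold at P5 and 1.89-fold at P14, and Angpt2 rose 1.22-fold and 2.42-fold.

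Set against each other within an array, the level of Angpt2 minus that of Angpt1 changed by 0.95 in log2 at P5 and by 2.34 at P14 with scrambled antimiR (1.93-fold and 5.06-fold), and by 1.17 and 2.19 with antimiR-34a. The difference on the 4 arrays of 85% O2 with scrambled antimiR at P14 ran from 1.17 to 1.89, above the range of -0.90 to -0.75 in 21% O2. Since each probe has its own brightness, only changes of this difference carry meaning, not its sign, and it is given as a description with no test of its own.

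**Figure D3:**
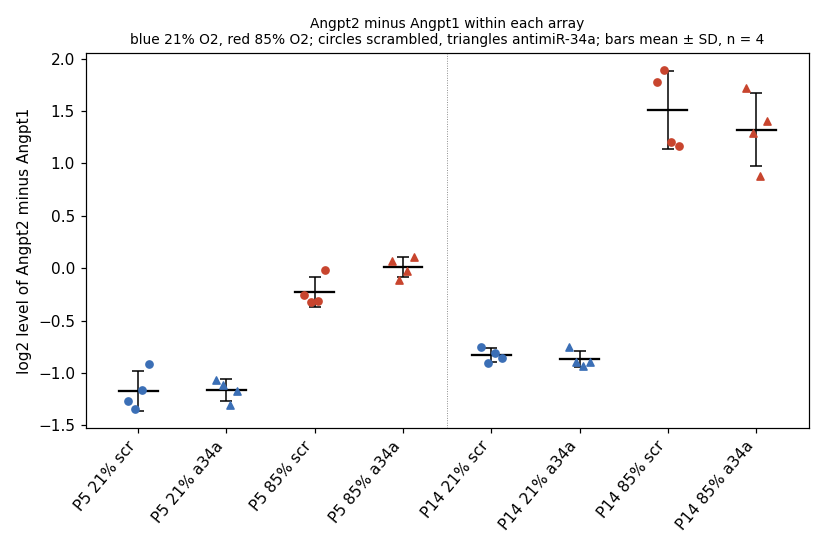
Log2 level of Angpt2 minus that of Angpt1 within each array (vertical axis) for the 8 groups (horizontal axis). Points are arrays, blue 21% O2 and red 85% O2, circles scrambled antimiR and triangles antimiR-34a, and bars give mean ± SD of 4 arrays. The 8 arrays of 85% O2 at P14 lie between 0.88 and 1.89 and the 16 arrays of 21% O2 between -1.35 and -0.75.

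Tek, the receptor of both angiopoietins, had the largest fall of the 10 genes at P14. Its level with scrambled antimiR was 1.80, 1.79, 1.78 and 1.69 in 21% O2 and -0.35, -0.68, -0.74 and -1.01 in 85% O2. The groups were separated by far more than their spread, and the fall was 5.51-fold (log2 change -2.46, SE 0.12, adjusted p = 2.58e-09). At P5, by contrast, the arrays overlapped, at 1.13, 1.15, 1.45 and 1.02 against 0.79, 1.13, 0.88 and 1.06, and the log2 change of -0.22 did not pass (95% interval -0.46 to 0.02, adjusted p = 0.119). With antimiR-34a the fall was 1.25-fold at P5 (adjusted p = 0.0273, arrays overlapping) and 4.15-fold at P14 (adjusted p = 1.3e-08). The call at P5 did not hold when any of 5 arrays was left out (replicates 1, 2 and 4 of 21% O2, 3 and 4 of 85% O2), with log2 changes from -0.32 to -0.28, nor with no filter on dim probes or by the methods' t-test (adjusted p = 0.059).

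Tie1 fell less. At P14 with scrambled antimiR its levels were 3.11, 2.90, 3.14 and 2.75 in 21% O2 and 2.46, 2.30, 2.40 and 2.26 in 85% O2, a fall of 1.54-fold (adjusted p = 0.000112). At P5 it fell 1.26-fold (adjusted p = 0.00613), without overlap of the arrays. With antimiR-34a it fell 1.47-fold at P14 (adjusted p = 0.000243), and at P5 its log2 change of -0.16 did not pass (95% interval -0.34 to 0.03), except without replicate 3 of 21% O2 (-0.22, adjusted p = 0.046).

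Of 11 other genes fixed for the angiopoietin and Tie pathway, 10 could be tested. With scrambled antimiR, 5 of them passed at P5 (1 higher, 4 lower, median log2 change -0.13) and 8 at P14 (4 higher, 4 lower, median -0.02), where the median over all genes was -0.07 and -0.06. Of all genes, 45.8% passed at P5 (18.2% higher, 27.6% lower) and 61.6% at P14 (28.9% higher, 32.6% lower). The counts of the lists below, in hyperoxia with scrambled antimiR, stand beside the same shares. At P14, Ptprb, the endothelial phosphatase that acts on Tek, fell 2.41-fold (adjusted p = 4.67e-09). Svep1, a large extracellular matrix protein, rose 1.69-fold (adjusted p = 8.47e-06) and Dok2, an adaptor recruited by the activated receptor, rose 1.55-fold (adjusted p = 0.000176). The receptors and this phosphatase were thus lower at P14, while other genes of the list moved either way. At P5, Tnip2 rose 1.36-fold and Grb7, an adaptor, fell 1.22-fold.

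Apelin showed the largest rise of the 10 genes at both ages. Its level with scrambled antimiR at P14 was 2.86, 2.73, 2.83 and 2.85 in 21% O2 and 5.37, 5.50, 5.07 and 5.09 in 85% O2, a rise of 5.43-fold (log2 change 2.44, SE 0.12, adjusted p = 2.96e-09). At P5 it went from 2.48, 2.53, 2.41 and 2.23 to 4.47, 3.76, 4.42 and 4.20, a rise of 3.48-fold (adjusted p = 5.09e-07). With antimiR-34a it rose 2.09-fold at P5 (adjusted p = 4.74e-05) and 5.76-fold at P14 (adjusted p = 2e-09). In each of these comparisons the lowest array in 85% O2 was above the highest in 21% O2.

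Its receptor moved the other way. Aplnr with scrambled antimiR lay at 0.86, 1.35, 0.94 and 1.35 in 21% O2 at P14 and at -0.61, -0.61, -0.77 and -0.64 in 85% O2, a fall of 3.44-fold (log2 change -1.78, SE 0.24, adjusted p = 2.2e-05). At P5 the levels were 0.94, 1.29, 1.60 and 1.27 in 21% O2 and -0.61, -0.31, -0.54 and 0.29 in 85% O2, a fall of 2.95-fold (adjusted p = 1.28e-05). Replicate 4 of 85% O2 stood nearest to the arrays of 21% O2. With antimiR-34a the fall was 1.89-fold at P5 (adjusted p = 0.000875) and 4.10-fold at P14 (adjusted p = 6.08e-06).

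The 9 other genes fixed for the apelin pathway were all tested. At P14 with scrambled antimiR, 3 were higher and 2 lower (median log2 change 0.30), and at P5, 2 were higher and 2 lower (median -0.01). Beside this, 28.9% of all genes were higher and 32.6% lower at P14, and 18.2% and 27.6% at P5. Klf4, an endothelial transcription factor that responds to flow, rose 1.64-fold at P14 (adjusted p = 0.000491) and 1.42-fold at P5 (adjusted p = 0.000669). Mef2c, a transcription factor, fell 1.54-fold at P14 (adjusted p = 0.000144). Mme, neprilysin, which cleaves apelin, had a log2 change of -0.58 at P14 (adjusted p = 0.00135) and rose 1.22-fold at P5 (adjusted p = 0.00882). Furin, a protease that trims proapelin, fell 1.22-fold at P5 (adjusted p = 0.00212) and rose 1.32-fold at P14 (adjusted p = 0.00314).

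The junction genes shared by endothelial cells changed little. Cdh5 fell 1.21-fold at P5 with scrambled antimiR (adjusted p = 0.0132), from 4.06, 4.15, 4.34 and 4.17 to 4.05, 3.83, 3.87 and 3.88. At P14 it lay at 4.45, 4.46, 4.43 and 4.45 in 21% O2 and at 4.40, 4.52, 4.49 and 4.48 in 85% O2, and its log2 change of 0.02 did not pass (95% interval -0.11 to 0.16). The sign of this last value depended on the scaling between arrays, since with quantile normalization the log2 change was -0.20 (adjusted p = 0.00969) and with the authors' processed values -0.19 (adjusted p = 0.0146). With antimiR-34a Cdh5 did not pass at P5 (log2 change -0.20, 95% interval -0.37 to -0.03, adjusted p = 0.0571) or at P14 (-0.10, 95% interval -0.24 to 0.03), although it passed with quantile normalization at P5 (-0.24, adjusted p = 0.021) and P14 (-0.33, adjusted p = 0.000251), and with the authors' values at both ages (-0.23 and -0.31). It also passed without replicate 4 of 21% O2 (adjusted p = 0.0309) or replicate 3 of 85% O2 (adjusted p = 0.0219) at P5, and without replicate 2 of 85% O2 (adjusted p = 0.0471) at P14.

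Pecam1 did not pass in any of the 4 comparisons of oxygen levels. With scrambled antimiR its log2 change was 0.03 at P5 (95% interval -0.23 to 0.28) and -0.32 at P14 (95% interval -0.66 to 0.02, adjusted p = 0.0917). The arrays of 85% O2 at P14 were spread widely, at 1.91, 1.86, 1.32 and 1.05, and without replicate 1 or replicate 2 the log2 change was -0.45 (adjusted p = 0.0211) or -0.43 (adjusted p = 0.0332). It also passed with quantile normalization (-0.41, adjusted p = 0.0269) and with the authors' processed values (-0.40, adjusted p = 0.03).

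Other pan-endothelial genes did not move as a block. Of the 14 in the list, 8 passed at P5 with scrambled antimiR (4 higher, 4 lower) and 11 at P14 (5 higher, 6 lower), and the median log2 change was 0.06 and 0.04. Over all genes, 45.8% passed at P5 (18.2% higher, 27.6% lower) and 61.6% at P14 (28.9% higher, 32.6% lower). At P14, Tmem100, a BMP-dependent gene of endothelial cells, fell 2.99-fold (adjusted p = 9.66e-07), Calcrl, a receptor of adrenomedullin, fell 2.33-fold (adjusted p = 2.38e-05) and Clec14a fell 2.07-fold (adjusted p = 2.19e-05), while Cldn5 rose 1.80-fold (adjusted p = 1.61e-07) and Eng 1.38-fold (adjusted p = 0.000647). At P5, Calcrl fell 1.93-fold (adjusted p = 1.86e-07), whereas Eng, a co-receptor of the TGF-beta family, rose 1.62-fold (adjusted p = 3.8e-06) and Cldn5, a tight junction protein, rose 1.52-fold (adjusted p = 0.000128).

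The markers of aerocytes went in different directions. Ednrb fell 2.27-fold at P14 with scrambled antimiR (adjusted p = 2.12e-06), from 1.13, 1.14, 1.09 and 1.13 to 0.34, -0.10, -0.13 and -0.36. Its second probe fell 2.83-fold (adjusted p = 1.69e-08). At P5 the main probe had a log2 change of -0.26 that did not pass (95% interval -0.49 to -0.04, adjusted p = 0.0569). The second probe had -0.11 (adjusted p = 0.547). The main probe did pass with quantile normalization (adjusted p = 0.0393), with the authors' values (adjusted p = 0.0495), with only the compared groups in the fit (adjusted p = 0.0376) and without replicate 4 of 85% O2 (-0.33, adjusted p = 0.0292). With antimiR-34a Ednrb fell 1.33-fold at P5 (adjusted p = 0.00604) and 2.66-fold at P14 (adjusted p = 4.19e-07). The call at P5 was not shared by its second probe (-0.31, adjusted p = 0.0896) or by the methods' t-test (adjusted p = 0.079).

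Car4, by contrast, rose at P14. Its level with scrambled antimiR was 3.12, 3.09, 3.18 and 2.72 in 21% O2 and 3.34, 3.43, 3.59 and 3.52 in 85% O2, a rise of 1.36-fold (adjusted p = 0.00342). The lowest array in 21% O2 was replicate 4, the dim array named above, and without it and the bright antimiR-34a array the log2 change was 0.34 and passed. With the authors' processed values the log2 change was 0.28 and did not pass (adjusted p = 0.0525). With antimiR-34a the rise was 1.49-fold (adjusted p = 0.000443).

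At P5 the 2 probes of Car4 disagreed. With antimiR-34a, the main probe fell 1.19-fold (adjusted p = 0.00981, and 0.0556 by the methods' t-test) and the second rose 1.34-fold (adjusted p = 0.0141). With scrambled antimiR, the main probe had a log2 change of -0.17 that did not pass (adjusted p = 0.0588), though it did with quantile normalization (adjusted p = 0.0202), with the authors' values (adjusted p = 0.0257) and without replicate 1 of 21% O2 (adjusted p = 0.0258), and the second rose 1.37-fold (adjusted p = 0.0115). No direction is given for Car4 at P5. At P14 both probes were higher, although the second did not pass with scrambled antimiR (log2 change 0.24, adjusted p = 0.0898).

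**Figure D4:**
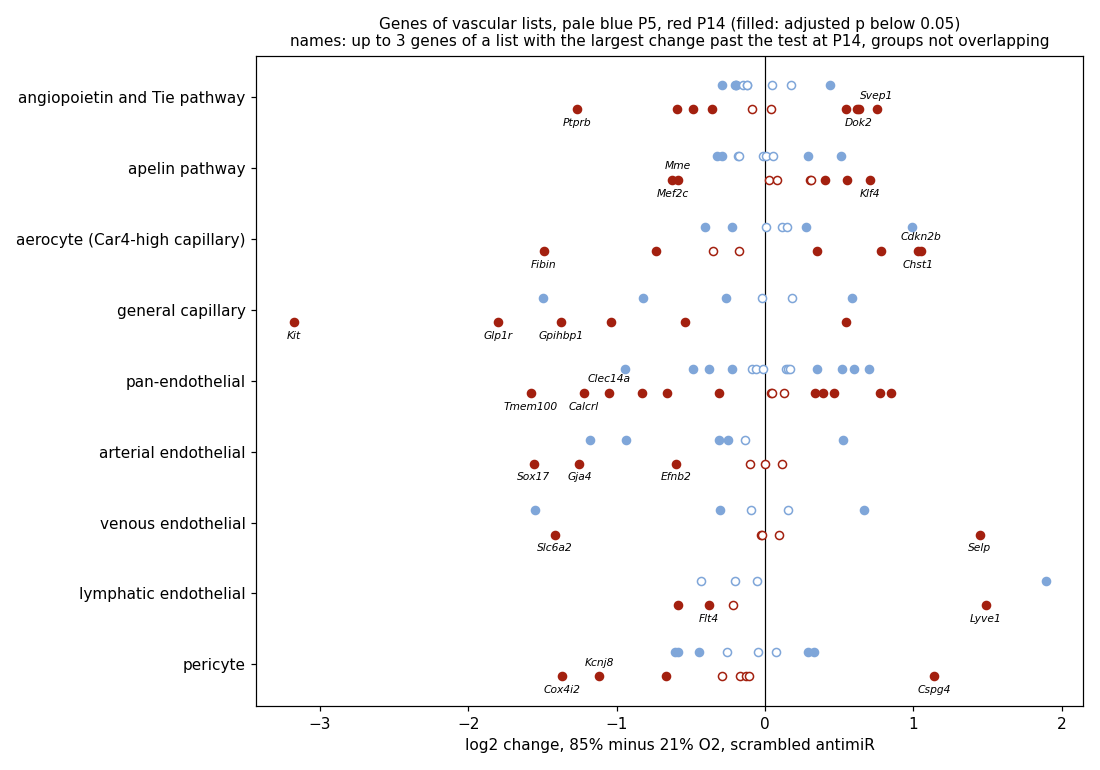
Log2 change between 85% and 21% O2 with scrambled antimiR (horizontal axis) for each tested gene of 9 vascular lists (vertical axis), the 10 members left out. Points are genes (main probe), pale blue P5 and red P14, filled where the adjusted p was below 0.05. In the general capillary list 5 of 6 genes fell at P14, Kit the most at -3.18, beside 32.6% of all genes. The aerocyte list lay on both sides of 0.

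Among general capillary genes other than Aplnr, 5 fell and 1 rose at P14, beside 32.6% of all genes lower and 28.9% higher. Of the 6 other genes in that list, all passed at P14 with scrambled antimiR, 1 higher and 5 lower, with a median log2 change of -1.21 beside -0.06 over all genes, and 4 passed at P5, 1 higher and 3 lower, with a median of -0.14. Kit, a receptor tyrosine kinase also found on mast cells and blood progenitors, fell 9.04-fold at P14 (adjusted p = 3.92e-10) and 2.82-fold at P5 (adjusted p = 2.16e-07). Glp1r, the receptor of glucagon-like peptide 1, fell 3.48-fold at P14 (adjusted p = 7.51e-06) and 1.77-fold at P5 (adjusted p = 0.00659). Gpihbp1, which holds lipoprotein lipase on the capillary wall, fell 2.60-fold at P14 (adjusted p = 1.63e-06). Cd93, a lectin-like receptor, was the gene that rose at P14 (1.46-fold, adjusted p = 0.000273). Plvap, a protein of endothelial fenestrae, rose by 0.59 in log2 at P5 (adjusted p = 1.76e-05) but was among the 5 that fell at P14.

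The 8 other genes of the aerocyte list moved both ways at P14, 4 higher and 2 lower of 8 tested (median 0.09), and at P5, 2 higher and 2 lower of 7 tested. Fibin fell 2.81-fold (adjusted p = 1.82e-06), while Cdkn2b, a cell cycle inhibitor, rose 2.07-fold (adjusted p = 0.000125) and Chst1, a sulfotransferase, rose 2.05-fold (adjusted p = 3.04e-08). These lists were described by counts and medians only, and none was tested as a set. Their counts stand beside 28.9% of all genes higher and 32.6% lower at P14, and 18.2% and 27.6% at P5.

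Lists of larger vessels and of the cells around them were small, and 28.9% of all genes were higher and 32.6% lower at P14. The arterial list had 0 higher and 3 lower of 6 at P14 with scrambled antimiR, among them Sox17, a transcription factor of arterial endothelium (2.94-fold lower, adjusted p = 5.88e-08) and Gja4, a gap junction protein (2.38-fold lower, adjusted p = 1.5e-07). In the venous list 1 of 5 was higher, Selp (P-selectin, 2.73-fold, adjusted p = 0.000837), and 1 lower, Slc6a2 (2.67-fold, adjusted p = 0.00872). The lymphatic list had 1 higher and 2 lower of 4, with Lyve1, which is also found on some macrophages, 2.81-fold higher (adjusted p = 1.35e-06). The pericyte list, cells that are a source of Angpt1, had 1 higher and 3 lower of 8 at P14 (median -0.23), with Cox4i2 2.59-fold and Kcnj8 2.17-fold lower and Cspg4 2.21-fold higher.

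Markers of other cells moved as well, and their part in the results above was not tested. Their counts stand beside 28.9% of all genes higher and 32.6% lower at P14, and 18.2% and 27.6% at P5. At P14 with scrambled antimiR, 4 of 6 lung epithelial genes were higher and 0 lower (summed as a mean log2 level, 6.23 to 6.36 in 85% O2 against 5.75 to 5.96 in 21% O2). Of 8 blood cell and platelet genes, 2 were higher and 3 lower, and the mean level ranged from 0.24 to 0.58 in 85% O2 and from 0.46 to 0.69 in 21% O2. Of 8 skeletal muscle genes, 0 were higher and 5 lower, with a mean level of -3.22 to -2.84 in 85% O2 and -2.05 to -1.01 in 21% O2. At P5, 3 of 6 epithelial genes were higher and 0 lower (5.57 to 5.71 in 85% O2 against 5.24 to 5.38 in 21% O2), as were 3 of 8 blood cell and platelet genes (0.65 to 0.98 against 0.37 to 0.59), and 4 of 8 skeletal muscle genes were lower (-3.83 to -3.03 in 85% O2 against -2.92 to 1.52 in 21% O2, where replicate 4 held the 1.52 and the other 3 lay at or below -2.02). Without that replicate the count of the 10 genes called at P5 was again 6. The mean level of the 14 pan-endothelial genes at P14 ran from 3.41 to 3.54 in 85% O2 and from 3.69 to 3.73 in 21% O2, and at least 13 of these 14 genes were well above background on every array.

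The hyperoxia effect differed with age for 7 of the 10 genes. The interaction of oxygen and age with scrambled antimiR, the log2 change at P14 minus that at P5, passed for these 7, 4 above 0 and 3 below, beside 41.6% of 27079 genes tested (23.7% above and 17.9% below 0). Tek had the largest, at -2.24 (SE 0.16, adjusted p = 4.04e-10). Ednrb (-0.92, adjusted p = 7.95e-05) and Angpt1 (-0.61, adjusted p = 8.08e-05) also fell more at P14, whereas Angpt2 (0.79, adjusted p = 0.000694) and Apln (0.64, adjusted p = 0.00936) rose more. Car4 on its main probe (0.61, adjusted p = 0.000524) and Cdh5 (0.29, adjusted p = 0.0176) moved up relative to P5. For Aplnr the interaction was -0.22 (95% interval -0.85 to 0.41), for Tie1 -0.29 (95% interval -0.55 to -0.02, adjusted p = 0.0769) and for Pecam1 -0.35 (95% interval -0.76 to 0.06). With quantile normalization the values of Apln (0.45, adjusted p = 0.0829) and Cdh5 (0.14, adjusted p = 0.228) did not pass, nor did they with the authors' values (adjusted p = 0.0779 and 0.218). The second probe of Car4 gave -0.21 (adjusted p = 0.342), and on the mean of its 2 probes Car4 did not pass (0.20, adjusted p = 0.146). The interaction of Tie1 passed without the 2 arrays that stood apart in brightness (-0.36, adjusted p = 0.0282), with normexp (-0.36, adjusted p = 0.0406), with quantile normalization (-0.34, adjusted p = 0.0484) and with the authors' values (-0.36, adjusted p = 0.036). It also passed without scrambled replicate 4 of 21% O2 at P14 (adjusted p = 0.0257) or replicate 3 of 21% O2 at P5 (adjusted p = 0.0483).

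AntimiR-34a was compared with the scrambled antimiR to ask whether blocking the microRNA moved these genes, the angiopoietin 1 axis in particular. In 21% O2 at P5, 0 of 10 genes passed, beside 0.119% of 25178 genes, and 2 of 10 had an unadjusted p below 0.05, as did 17.7% of all genes. In 85% O2 at P5, 0 passed, beside 0.0715%, and 4 had an unadjusted p below 0.05, as did 13.3%. In 21% O2 at P14, 0 passed, beside 0% of 26714 genes, and 0 had an unadjusted p below 0.05, as did 10.4%. Without the 2 arrays that stood apart in brightness, 6729 of 40085 probes passed (16.8%), and 1 of the 10 genes, Car4. Without scrambled replicate 4 alone 1175 probes passed, and without antimiR-34a replicate 1 alone 35. In 85% O2 at P14, 1 passed and 3 had an unadjusted p below 0.05, beside 2.52% of genes called (1.18% higher) and 16.4% of genes below that p. The methods' t-test called 0 of the 10 in each of the 4 comparisons and at most 1 of all probes, so its count says nothing about the 10 genes. The scrambled antimiR groups serve both these comparisons and those of oxygen.

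The 1 call was Angpt1 in 85% O2 at P14. Its level was 1.05, 1.12, 1.25 and 1.15 with scrambled antimiR and 1.27, 1.37, 1.48 and 1.53 with antimiR-34a, all 4 of the latter above all 4 of the former, and it was 1.21-fold higher (log2 change 0.27, SE 0.07, 95% interval 0.13 to 0.42, adjusted p = 0.0462). Beside its 2.37-fold fall in hyperoxia this is a small shift, and the mean of 1.41 remained below the 2.33 of antimiR-34a mice in 21% O2. The value lay at the threshold. It did not pass with normexp background correction (log2 change 0.20, adjusted p = 0.229), with quantile normalization (0.26, adjusted p = 0.0763), with the authors' values (0.27, adjusted p = 0.0779), with the replicate block (adjusted p = 0.0673), with only the 2 groups in the fit (adjusted p = 0.215), with the methods' t-test (adjusted p = 0.336), or without any 1 of 5 arrays (scrambled replicate 1, 2 or 4, antimiR-34a replicate 3 or 4, adjusted p from 0.0912 to 0.119). At P5 in 85% O2 the log2 change of Angpt1 was -0.08 (95% interval -0.26 to 0.11).

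For the receptor Tek in 85% O2 at P14, the log2 change was 0.28 (95% interval 0.03 to 0.54, adjusted p = 0.24), with levels of -0.35, -0.68, -0.74 and -1.01 against -0.59, -0.53, -0.18 and -0.35, which overlap. Angpt2 and Tie1 had log2 changes of 0.09 (95% interval -0.24 to 0.41) and -0.05 (95% interval -0.26 to 0.16) there. The main probe of Ednrb had a log2 change of -0.33 that did not pass (adjusted p = 0.175), and its second probe was 1.31-fold lower (adjusted p = 0.0361), with overlapping arrays.

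In 85% O2 at P5, the apelin genes lay nearer to their levels in 21% O2 with antimiR-34a than with scrambled antimiR, without passing the test. Apln had 4.47, 3.76, 4.42 and 4.20 with scrambled antimiR and 3.83, 3.80, 3.42 and 3.69 with antimiR-34a, a log2 change of -0.52 (95% interval -0.84 to -0.21, adjusted p = 0.179). Aplnr had -0.61, -0.31, -0.54 and 0.29 against 0.46, 0.46, 0.19 and 0.32, a log2 change of 0.65 (95% interval 0.26 to 1.04, adjusted p = 0.179). Both pairs of groups overlap, in each case through 1 scrambled array. Without scrambled replicate 4, the change of Aplnr was 0.84 and passed (adjusted p = 0.0318). With no filter on dim probes both Apln (lower) and Aplnr (higher) passed, beside 7.69% of all probes, against 0.0639% with the filter. At P14 the same comparison gave -0.09 for Apln and -0.37 for Aplnr (95% interval -0.87 to 0.14). Without antimiR-34a replicate 2, at -1.87, the value of Aplnr was -0.09, and over all arrays left out in turn it lay between -0.57 and -0.09.

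**Figure D5:**
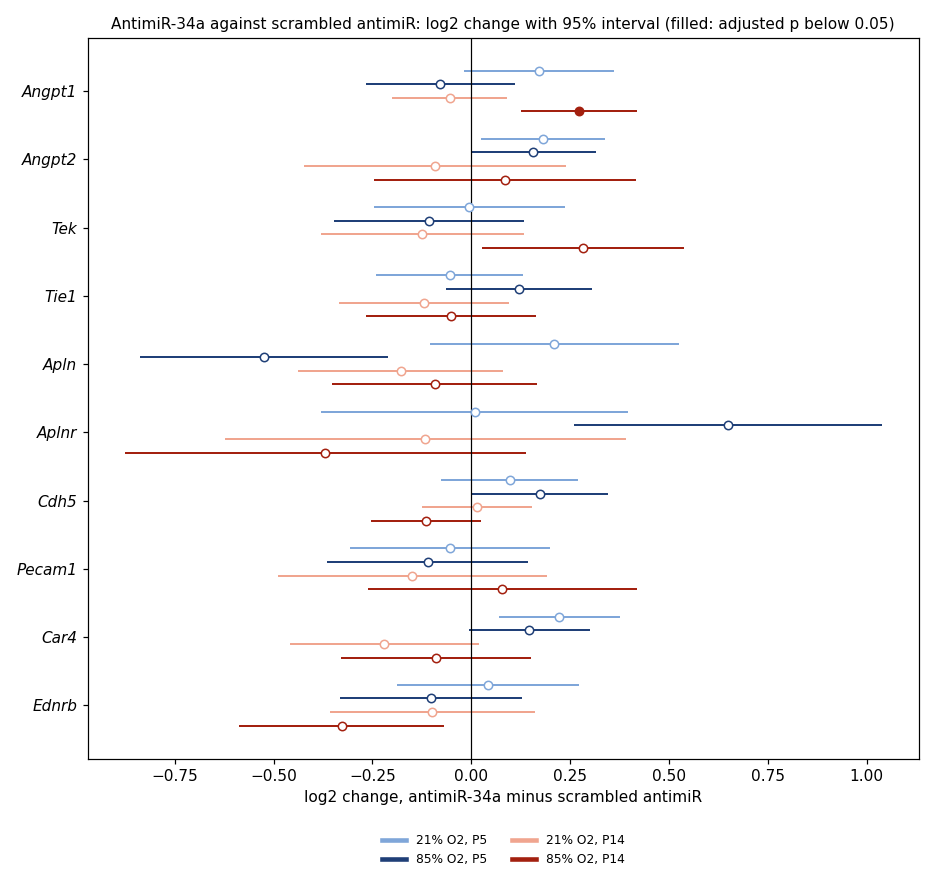
Log2 change of the 10 genes between antimiR-34a and scrambled antimiR (horizontal axis) with its 95% interval from the limma fit, in 21% and 85% O2 at P5 and P14 (4 arrays a group). The filled point, Angpt1 in 85% O2 at P14 at 0.27, is the only one that passed an adjusted p of 0.05, and the intervals of Apln (-0.84 to -0.21) and Aplnr (0.26 to 1.04) in 85% O2 at P5 leave out 0.

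In normoxia the changes with antimiR-34a were small. At P5 the largest were Car4 (log2 change 0.22, adjusted p = 0.162) and Apln (0.21, adjusted p = 0.456), and the intervals of all 10 genes lay between -0.38 and 0.52. At P14 all 10 intervals lay between -0.62 and 0.39. Without the 2 arrays of 21% O2 at P14 that stood apart in brightness, Car4 was lower with antimiR-34a at P14 (log2 change -0.36, adjusted p = 0.0362), against -0.22 with all arrays (adjusted p = 0.485). Among the fixed lists, the genes that passed were Klf2 (1.61-fold higher, adjusted p = 0.0328), Klf4 (1.46-fold higher, adjusted p = 0.0438) and Tbx2 (1.31-fold higher, adjusted p = 0.0438) in 21% O2 at P5, and Cldn5 (1.23-fold lower, adjusted p = 0.0292) in 85% O2 at P14. These values lie near the threshold, beside 0.119% and 2.52% of all genes called. The alternatives were not run for list genes. In 21% O2 at P5, 49 probes passed in all, and from 1 (the methods' t-test) to 396 (only the compared groups in the fit) under the alternatives. Klf2 and Klf4 are transcription factors that flow induces in endothelium. With antimiR-34a, hyperoxia at P5 gave log2 changes of -0.33 for Klf2 (adjusted p = 0.0232) and -0.20 for Klf4 (adjusted p = 0.0938). These values share the antimiR-34a arrays of 21% O2 with the calls above. Whether antimiR-34a changed the response of list genes to oxygen was not tested.

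Whether antimiR-34a changed the response to oxygen was tested as an interaction, in which 0 of 10 genes passed at P5 (beside 0.0516% of genes) and 0 at P14 (beside 0.0824%). Without the 2 arrays that stood apart in brightness, 17% of all probes passed at P14 (6819 of 40085), and still 0 of the 10 genes. At an unadjusted p below 0.05, 2 of 10 stood at each age, as did 10.9% of genes at P5 and 14.8% at P14. Apln at P5 had the smallest p, with a value of -0.74 (95% interval -1.18 to -0.29, adjusted p = 0.248), followed by Angpt1 at P14 (0.33, 95% interval 0.12 to 0.53, adjusted p = 0.171) and Aplnr at P5 (0.64, 95% interval 0.09 to 1.19, adjusted p = 0.389). Tek at P14 had 0.41 (95% interval 0.05 to 0.77, adjusted p = 0.291).

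Over the 8 groups, the order of the levels showed the pattern of each gene. Tek ran from 1.77 (21% O2, scrambled antimiR, P14) down to -0.69 (85% O2, scrambled antimiR, P14), and the 4 groups of P5, in the middle of that order, overlapped in turn among themselves but not with the groups of P14. Apln ran from 5.26 (85% O2, scrambled antimiR, P14) to 2.41 (21% O2, scrambled antimiR, P5), with all 4 groups of 85% O2 above all 4 of 21% O2. Aplnr ran the other way, from 1.28 (21% O2, antimiR-34a, P5) to -1.03 (85% O2, antimiR-34a, P14), with the 4 groups of 21% O2 overlapping each other. For Pecam1, each group overlapped the next, from 1.86 to 1.36.

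As a description, the correlation over the 32 arrays was -0.94 between Apln and Aplnr, -0.87 between Angpt2 and Ednrb, and 0.91 between Tek and Ednrb. After the group means were taken out these values were -0.17, 0.22 and 0.68. The arrays share 8 groups and 4 slides, so the first values mostly repeat the differences between groups. The genes whose level followed that of Tek most closely over the 32 arrays, among 26947 genes, were Nin (r = 0.98), Cnot6l and Hey1 (0.96 each). For Apln they included Slc3a2 and Inhba (r = 0.97 each), and for Aplnr they were Mfap2 and a transcript with no symbol (0.96 each) and Map2k6 (0.95). Angpt1 was followed by Sipa1l2, Slc26a10 and St8sia4 (0.97 each), Angpt2 by Tnfsf13b (0.97), H2-DMb1 and A530099J19Rik (0.96 each), and Ednrb by C530008M17Rik (0.97), Sdc2 and Car2 (0.96 each). Closest to Tie1 were Kif26a, Cbln1 and Dnah8 (0.93 each), to Cdh5 Gnai2, Bmp5 (0.93 each) and Speer4c (0.92), to Car4 Gm5296, H2-DMb1 (0.95 each) and 2210016L21Rik (0.94), and to Pecam1 Moap1 (0.90), Gltp and a transcript with no symbol (0.89 each). After the group means were taken out, these correlations ranged from -0.12 (Angpt2 with A530099J19Rik) to 0.88 (Pecam1 with Moap1), with 0.06 for Angpt2 with Tnfsf13b and 0.13 for Apln with Slc3a2.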

How the data were processed

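Conditions and replicate numbers came from the sample labels. Per the file headers, the deposited array files hold intensities per spot, made with Agilent Feature Extraction 10.7.3.1, and the processed intensity was already background-corrected and not scaled between arrays. A further deposited table gives the authors' own log2 values for each probe, with column medians of 6.004 to 6.006 and r of at least 0.997 with the scanner values of the same array. Its direction is thus known, and its scaling is not given in the sources used here. It served as an alternative.

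The log2 processed signal was centred on the 75th percentile of each array. Control spots and spots marked as outliers (0.211%) were left out, and repeated spots were averaged. A probe was tested where some group had it well above background on each of its 4 arrays (35982 probes at P5, 38455 at P14, 39162 over both ages). The test was that of limma 3.58.1 in R 4.3.3. The model had 1 mean per group, with the 16 arrays of an age fitted together, or all 32 for comparisons of age. Adjusted p-values are Benjamini-Hochberg values over the whole set of tested probes, with a threshold of 0.05. Shares of genes called refer to the brightest probe of each gene, and intervals are 95%. The number of arrays, 4 a group with 1 mouse each, limits the precision, and p-values measure the spread between these mice. The tests were checked on simulated data.

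The members, the 12 gene lists (94 genes, 93 on the array) and the tests were chosen with earlier results of these data known. Of each list, at most 3 called genes with non-overlapping groups and the largest change were named, besides Cd93, Furin at P14, and Cldn5 and Eng at P14, which were chosen after their values were seen, and for each member the 3 genes most correlated with it, of which 1 is not reported here. The labels name a miRNeasy kit for RNA isolation and the methods a peqGOLD kit, and the labels' protocol places both ages later by part of a day. Probe positions and names are those of the array files (mm9), and reference sequences are of GRCm38.p6. Positions were not converted.

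Alternatives changed the background correction (normexp, offset 50), the scaling (quantile normalization), the source (the authors' values), the filter (none, or a probe detected on each array), the groups in the fit (the compared ones alone), the test (the methods' t-test), the blocks (replicate number, slide) and the probe rule (the mean of a gene's probes). Others left out 2 arrays that stand apart in brightness, or each array in turn.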

Additional observations from a re-analysis of the deposited data

Results flagged for a closer look

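For 7 genes the change in hyperoxia with scrambled antimiR differed between P14 and P5 by the test of the interaction (limma, all 32 arrays). The log2 values were -2.24 for Tek, -0.92 for Ednrb, -0.61 for Angpt1, 0.79 for Angpt2, 0.64 for Apln, 0.61 for Car4 and 0.29 for Cdh5. The second probe of Car4 gave -0.21 (adjusted p = 0.342), so its probes disagree in sign, and the second probe of Ednrb gave -1.39 (adjusted p = 1.14e-06). Each age and oxygen level lay on a slide of its own, so the part of the slide cannot be told apart.

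Among the 80 sets of 4 arrays, 1 for each gene in each group, 3 held an array far from the others by Dixon's test, which chance does in about 1 set in 20. Apln in 21% O2 with antimiR-34a at P14 was 2.51 on replicate 1, the bright array, and 2.67 to 2.70 on the other 3. Cdh5 in 85% O2 with antimiR-34a at P5 was 4.23 on replicate 3 and 4.02 to 4.04 on the other 3. Car4 in 21% O2 with scrambled antimiR at P5 was 2.32 on replicate 1 and 2.49 to 2.52 on the other 3.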

How the results depend on the processing

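The number of the 10 genes called in hyperoxia with scrambled antimiR was 6 at P5 and 8 at P14, and stayed at 6 to 8 and 8 to 10 under every alternative that could be fitted. With antimiR-34a at P5 it was 7, and 4 with the methods' t-test, 6 with no filter on dim probes and on the mean of a gene's probes, 8 with quantile normalization and with the authors' values, and 6 to 8 when each array was left out. For antimiR-34a in 85% O2 at P14 the count was 1, and it was 0 with normexp, with quantile normalization, with the authors' values, with no filter on dim probes, with the replicate block, with only the compared groups in the fit and with the methods' t-test. It was 0 to 1 when each array was left out in turn. For antimiR-34a in 85% O2 at P5 the count was 0, and 2 with no filter on dim probes (Apln and Aplnr, where 4283 probes passed against 23) and 0 to 1 when each array was left out. In 21% O2 at P14 it was 0, and 1 without the 2 arrays that stand apart in brightness, where 6729 probes passed against 0. The count for age in 21% O2 was 7 (5 to 8 over the alternatives) and that for oxygen by age 7 (6 to 8). The causes of these differences were not tested. The median log2 change of all probes in hyperoxia at P14 shifted with the scaling, from -0.06 to 0.11 (normexp) with scrambled antimiR and from -0.11 to 0.08 (quantile normalization) with antimiR-34a, and that of oxygen by age went from 0.04 to 0.17 (normexp).

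Values that passed in at least 1 of the settings compared reversed for 2 genes. Cdh5 at P14 with scrambled antimiR was -0.20 with quantile normalization and -0.19 with the authors' values, against 0.02. Car4 at P5 with antimiR-34a was 0.089 (adjusted p = 0.286) on the mean of its probes, against -0.25, and its probes differ in sign. Among values that did not pass in either setting, the mean over probes turned Ednrb with age from -0.10 to 0.25 and Car4 at P5 with scrambled antimiR from -0.17 to 0.14.

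Same-numbered arrays of the antimiR and scrambled groups had correlations of -0.31 to 0.53, and whether the replicate numbers pair the mice was not tested. With the replicate block the count for antimiR-34a in 85% O2 at P14 went from 1 to 0, and the counts of the other comparisons were 6 and 8 (scrambled antimiR), 7 and 8 (antimiR-34a), 7 (age), 7 (oxygen by age) and 0, as without it. A slide block could not be fitted for oxygen or age.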
